A study of Homo sapiens with 6 samples.

Results

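The genes described here are 34 genes of glycolysis and of the transcriptional response to low oxygen, 19 from the glucose transporter SLC2A1 to the pyruvate dehydrogenase kinase PDK1 and 15 targets and regulators of the hypoxia-inducible factors (HIF). They were taken as a named list, and each was represented by its brightest probe set among those annotated with a single gene symbol. All 34 had such a probe set and all 34 passed the filter on dim genes, out of 21070 genes that passed it. The data are 6 expression arrays of LP-1, an established human multiple myeloma line that stands for malignant plasma cells. Control cultures (Ctrl) had medium at pHe 7.4, where pHe is the pH outside the cells, and are labelled as 9 months old. Short-term acid cultures (S.A.) had medium buffered to pHe 6.8 for a labelled 2 weeks, given elsewhere as 2 to 3 or 2 to 4 weeks. Long-term acid cultures (L.A.) had the same pHe 6.8 for a labelled 9 months, given in the sample descriptions as 8 to 10 weeks and in the series design as 8 to 10 months. All 3 groups were grown from this 1 line in RPMI-1640 medium with serum, in air with added CO2, and no genetic change or drug is named. S.A. therefore differed from Ctrl in labelled time as well as in pHe.

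Each group had 2 arrays described as biological replicates, and nothing in the labels says how the replicate cultures were separated, so the p-values measure the spread between these arrays. The values are log2 levels made by the authors with RMA. Replicate number accounted for 1.18% of the sum of squares within groups, against 33.3% if the 6 arrays had varied independently and equally. A fit without replicate number has 3 residual degrees of freedom, and a fit with it has 2, so the p-values and standard errors of the former tend to be too small. Calls with replicate number as a block are therefore given beside the main ones. All 9 plasma cell markers passed the filter, with Ctrl levels from 11.80 to 19.92. In S.A. TNFRSF17 was higher by 2.29, SLAMF7 by 2.17 and PRDM1 by 0.60, the last not with the block. In L.A. CD38 was higher by 1.65, and SLAMF7 fell from a mean of 14.59 in Ctrl to 7.44, both also with the block. The 3 of 5 B cell markers and 2 of 7 T and NK cell markers that passed had Ctrl levels between 3.89 and 5.43. Of the monocyte and erythroid markers, 4 of 7 and 2 of 4 passed, with Ctrl levels of at most 5.15. Of the stromal and endothelial list 5 of 7 passed, and PECAM1, at 11.57 in Ctrl, was the bright one. None of the tested B cell, T and NK cell, monocyte, stromal or erythroid markers was called in either acid group against Ctrl.

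Glycolysis turns glucose into pyruvate in the cytosol. Hexokinase and phosphofructokinase commit the sugar, the triose phosphate enzymes harvest ATP and NADH, and lactate dehydrogenase regenerates NAD+ by making lactate, which leaves the cell with a proton. When oxygen is low, the HIF alpha subunits HIF1A and EPAS1 escape hydroxylation by the EGLN enzymes and degradation through VHL, pair with ARNT and bind the core sequence ACGTG near many glycolytic and other genes. The alpha subunits are controlled mainly as proteins, so their mRNA is not a measure of their activity. Myeloma cells grow in bone marrow, where oxygen is low and lactic acid can accumulate.

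Promoters were examined because the list is defined by targets of a factor with a known core sequence. The promoter table of RefSeq, build GRCh38.p14, matched 30 of the 34 genes, all but BNIP3L, VEGFA, NDRG1 and VHL. In the 250 bases before the annotated start site, ACGTG on either strand was present in 11 of 30 members (36.7%). It was present in 18.7% of 27305 promoters of the same length and in 22.7% of 10833 promoters of genes tested. The E-box CACGTG, a site read by MYC-type factors, contains the core on both strands. It was present in 5 of 30 members (16.7%), 6.49% of all promoters and 8.65% of promoters of genes tested. With the E-boxes masked, 9 of 30 members (30.0%), 13.3% of all promoters and 15.6% of promoters of genes tested still held the core. Among the members called lower in S.A., 5 of 13 with a promoter held it, and among the others 6 of 17. These counts are descriptions with no test. The 5 promoters below belong to genes with different patterns across the groups, described in the following paragraphs, and capitals mark ACGTG on either strand; each is written 5′ to 3′ on the gene's own strand and ends at the base before the start site. They lie at chr2:74833877-74834126 on the plus strand (HK2), chrX:78103998-78104247 on the plus strand (PGK1), chr11:18394313-18394562 on the plus strand (LDHA), chr10:131981924-131982173 on the minus strand (BNIP3) and chr4:185396591-185396840 on the plus strand (ANKRD37).
HK2: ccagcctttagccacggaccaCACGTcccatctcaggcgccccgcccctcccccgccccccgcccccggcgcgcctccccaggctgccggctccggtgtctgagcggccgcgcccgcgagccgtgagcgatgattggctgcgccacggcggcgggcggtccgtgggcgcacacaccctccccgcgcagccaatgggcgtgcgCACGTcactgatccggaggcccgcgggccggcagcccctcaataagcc
PGK1: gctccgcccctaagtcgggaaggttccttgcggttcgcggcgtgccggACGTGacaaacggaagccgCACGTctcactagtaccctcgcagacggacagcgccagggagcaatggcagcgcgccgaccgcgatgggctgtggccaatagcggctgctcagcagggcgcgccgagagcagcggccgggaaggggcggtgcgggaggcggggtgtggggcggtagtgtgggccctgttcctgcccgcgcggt
LDHA: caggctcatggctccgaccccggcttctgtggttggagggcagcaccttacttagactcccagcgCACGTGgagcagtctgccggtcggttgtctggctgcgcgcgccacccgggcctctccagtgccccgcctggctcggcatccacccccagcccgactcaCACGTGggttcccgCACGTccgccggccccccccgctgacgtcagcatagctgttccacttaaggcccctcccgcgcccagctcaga
BNIP3: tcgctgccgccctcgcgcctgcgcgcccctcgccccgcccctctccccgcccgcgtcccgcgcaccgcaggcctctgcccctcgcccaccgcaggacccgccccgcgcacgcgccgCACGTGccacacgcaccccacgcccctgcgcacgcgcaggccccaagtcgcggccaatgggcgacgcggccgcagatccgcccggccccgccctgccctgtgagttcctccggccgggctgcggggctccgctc
ANKRD37: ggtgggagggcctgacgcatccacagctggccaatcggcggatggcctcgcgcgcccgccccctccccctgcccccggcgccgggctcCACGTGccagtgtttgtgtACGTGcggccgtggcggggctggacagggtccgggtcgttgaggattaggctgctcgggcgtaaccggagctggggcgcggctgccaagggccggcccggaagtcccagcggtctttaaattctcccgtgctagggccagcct
LDHA, BNIP3 and ANKRD37 hold the core inside an E-box, and LDHA and ANKRD37 also hold it outside one. HK2 and PGK1 hold it outside an E-box only. ADM, PFKFB3, TPI1 and SLC2A1, which had large differences from Ctrl, held no ACGTG in this window, which says nothing of sequences elsewhere in those genes.

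The comparison of S.A. with Ctrl asks what differed after weeks at pHe 6.8, in cultures whose labelled time also differed from that of Ctrl. Of the 34 genes 15 fell in S.A. and 0 rose, at an adjusted p under 0.05 from limma over all genes tested. Among all 21070 genes, 8.55% were called lower and 6.23% higher. With the replicate block, 11 of the 34 fell and 0 rose, against 3.49% and 2.9% of all genes. The median difference of the 34 was -0.69 on the log2 scale, beside -0.04 over all genes. The comparison of L.A. with Ctrl asks what was different at the same time label. In L.A. 9 of the 34 fell and 0 rose, against 1.59% and 1.61% of all genes, with a median of -0.47 beside -0.03. With the block 5 fell, against 0.555% of all genes, and 0 rose, against 0.769%. Both comparisons share the Ctrl arrays. In RNA from whole cultures, fewer cells expressing a gene and less RNA of it per cell cannot be told apart. The calls of 6 genes passed in both: HK2, PFKP, TPI1, ADM, BNIP3 and NDRG1. With the block, those of HK2, ADM, BNIP3 and NDRG1 passed in both. The share of all genes called lower in both was not counted. The plot of each array against the gene's Ctrl mean shows these 6 genes as rows that were low in all 4 acid arrays.

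**Figure D1:**
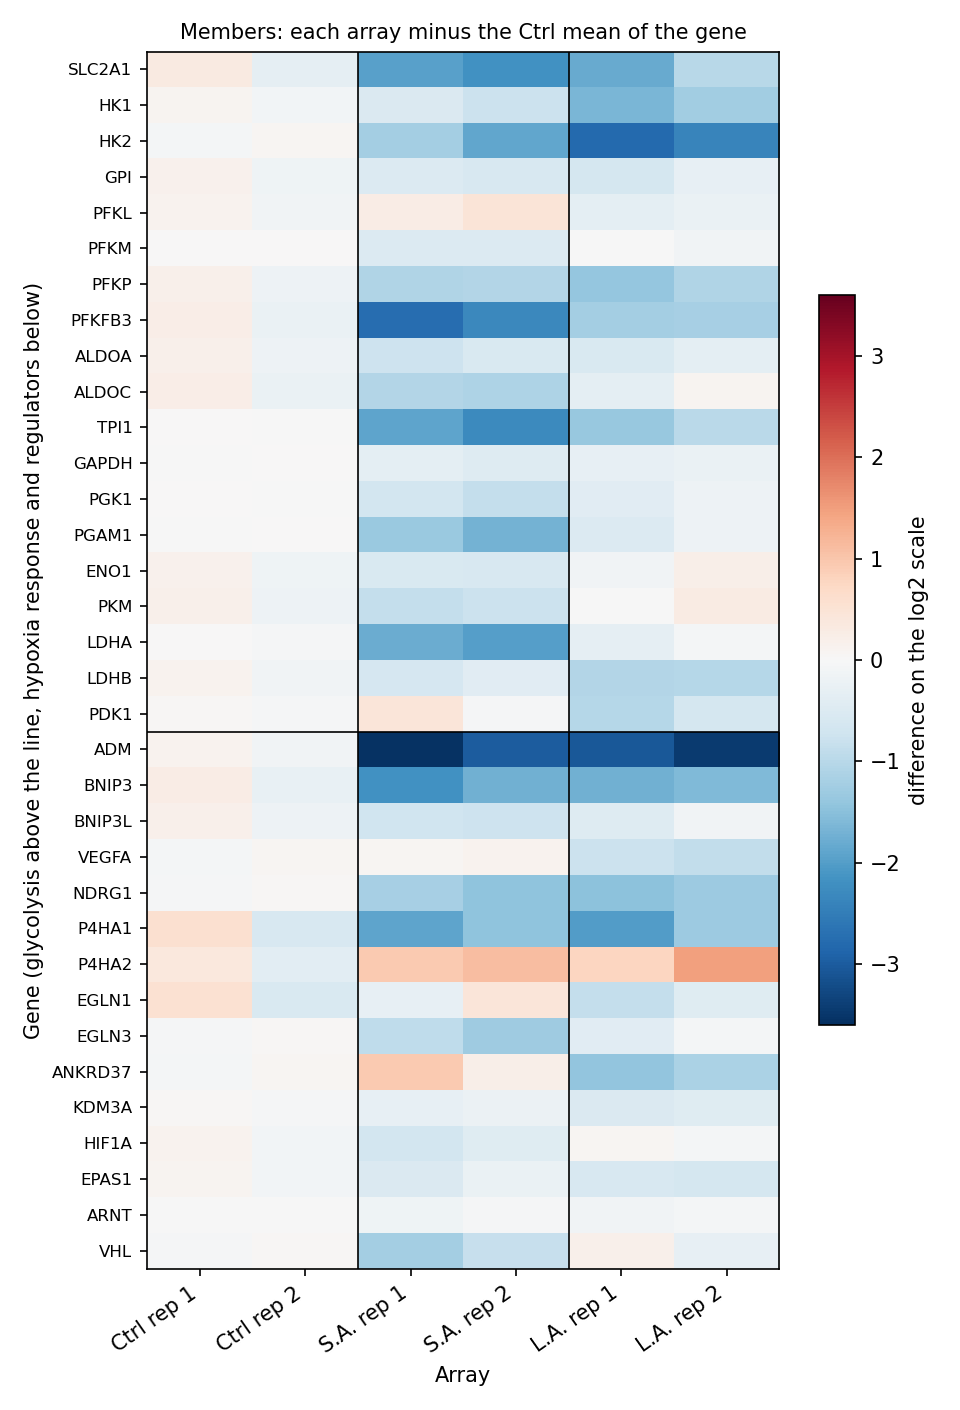
Heat map of the 34 genes (rows, in pathway order) on the 6 arrays (columns), coloured by the log2 value minus the gene's own Ctrl mean. The lower glycolytic genes from TPI1 to LDHA were lowest on the S.A. arrays, while HK1, HK2 and LDHB were lowest on the L.A. arrays, and ADM was low on all 4 acid arrays.

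Glucose uptake was represented by SLC2A1, the widespread glucose transporter GLUT1. Its log2 values were 8.13 and 7.48 on the Ctrl arrays, 5.84 and 5.62 in S.A. and 5.98 and 6.80 in L.A. Both acid groups lay below both Ctrl arrays. The S.A. difference was -2.07 ± 0.33 (SE; limma adjusted p = 0.0144), a 4.21-fold lower level, and it was also called with the block. The L.A. difference of -1.42 ± 0.33 did not pass (adjusted p = 0.0852), and that between the acid groups, 0.65 ± 0.33, did not either (adjusted p = 0.248).

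Among the enzymes of the hexose phosphates, the hexokinases went further down in the long-term cells. HK2, the inducible hexokinase that binds mitochondria, read 9.76 and 9.88 in Ctrl, 8.60 and 7.94 in S.A. and 7.03 and 7.44 in L.A., so the 3 groups did not overlap. It fell by 1.55 ± 0.26 in S.A. (adjusted p = 0.0154) and by 2.59 ± 0.26 in L.A. (adjusted p = 0.0089), a 6.0-fold lower level, both also with the block. Without Ctrl replicate 2 the S.A. call ended (adjusted p = 0.052). HK1, the hexokinase of most tissues, read 7.22 and 7.04 in Ctrl, 6.60 and 6.37 in S.A. and 5.48 and 5.87 in L.A. The groups again did not overlap. It fell by 1.45 ± 0.19 in L.A. (adjusted p = 0.0195, and 0.0397 with the block), while the S.A. difference of -0.65 ± 0.19 missed the threshold (adjusted p = 0.0725). The L.A. call of HK1 ended without either Ctrl array or without L.A. replicate 1. L.A. was below S.A. by -0.81 for HK1 and -1.04 for HK2 (adjusted p = 0.0382 and 0.0454), and neither call was kept with the block. Leaving out any 1 of the S.A. or L.A. arrays ended the HK1 call between acid groups, and leaving out S.A. replicate 1 or either L.A. array ended that of HK2.

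The phosphofructokinase subunits, which form the enzyme of the committed step, did not move together. PFKP, the platelet-type subunit, read 14.16 and 13.82 in Ctrl, 12.92 and 12.94 in S.A. and 12.61 and 12.92 in L.A., lower on all 4 acid arrays. Its differences were -1.06 ± 0.18 in S.A. (adjusted p = 0.0172, and 0.0488 with the block) and -1.23 ± 0.18 in L.A. (adjusted p = 0.0286, and 0.0743 with the block). Leaving out either L.A. array or either Ctrl array ended the L.A. call, and leaving out Ctrl replicate 1 or S.A. replicate 2 ended the S.A. call. The muscle-type subunit PFKM differed by -0.50 in S.A. (adjusted p = 0.0554) and -0.07 in L.A., neither called. The liver-type subunit PFKL, at a mean of 7.85 in Ctrl, 8.22 in S.A. and 7.56 in L.A., was called only between the acid groups, at -0.66 (adjusted p = 0.0418), and that call was lost with the block and with any 1 array left out.

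PFKFB3 makes fructose 2,6-bisphosphate, the main activator of phosphofructokinase, and it had the largest difference of the glycolytic members in S.A. It read 7.74 and 7.24 in Ctrl, 4.75 and 5.16 in S.A. and 6.26 and 6.30 in L.A., in 3 ranges that did not overlap. The S.A. difference was -2.54 ± 0.22 (adjusted p = 0.00333, a 5.81-fold lower level), and L.A. was above S.A. by 1.32 ± 0.22 (adjusted p = 0.014), both also called with the block. Leaving out either L.A. array ended the call between the acid groups, at an adjusted p of at most 0.051. The L.A. difference from Ctrl, -1.21 ± 0.22, lay just outside the threshold (adjusted p = 0.05036). GPI, the isomerase between the glucose and fructose phosphates, differed by -0.53 and -0.47 and was not called in either group.

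The 8 genes of the triose phosphate steps, from aldolase to pyruvate kinase, were all below Ctrl in the mean of the S.A. arrays. All were above S.A. in the mean of the L.A. arrays, and the 2 comparisons share the S.A. arrays. Among all 21070 genes, 11452 were below Ctrl in S.A. and 10240 were below S.A. in L.A. In S.A. 5 of the 8 fell, with a median of -0.79, and 2 of them with the block, where 8.55% and 3.49% of all genes were called lower. In L.A. 1 of the 8, TPI1, was called against Ctrl, where 1.59% of all genes were called lower, and the median was -0.28. TPI1, which interconverts the triose phosphates, read 12.56 and 12.53 in Ctrl, 10.64 and 10.25 in S.A. and 11.17 and 11.57 in L.A. The L.A. arrays lay between the other groups. Its difference was -2.10 ± 0.20 in S.A. (adjusted p = 0.00404), kept with the block. In L.A. it was -1.17 ± 0.20 (adjusted p = 0.0427, and 0.103 with the block), a call that ended when any 1 of the Ctrl or L.A. arrays was left out.

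PGAM1, the phosphoglycerate mutase, read 16.27 and 16.31 in Ctrl, 14.97 and 14.58 in S.A. and 15.81 and 16.10 in L.A. It fell by 1.52 ± 0.19 in S.A. (adjusted p = 0.00738) and was higher by 1.18 ± 0.19 in L.A. than in S.A. (adjusted p = 0.0119), both also with the block, and the second was lost without L.A. replicate 2 (adjusted p = 0.0565). A second probe set named PGAM1, with no gene ID in the annotation, differed by -1.83 in S.A. and -0.56 in L.A. The near-identical copy PGAM4 read 5.10 and 4.96 in Ctrl, 3.68 and 3.58 in S.A., under the filter limit of 3.77, and 4.57 and 4.71 in L.A. Signal cannot be divided between such copies on this array. The same uncertainty applies to GAPDH, PGK1, TPI1 and LDHA, which have pseudogenes close to their own sequence. ALDOC, an aldolase known best from brain, read 11.27 and 10.78 in Ctrl, 9.96 and 9.90 in S.A. and 10.68 and 11.12 in L.A., where the Ctrl and L.A. ranges overlapped. Its S.A. difference of -1.09 ± 0.23 was called (adjusted p = 0.0292), but not with the block or without Ctrl replicate 1 or either S.A. array.

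PKM, the pyruvate kinase of proliferating cells, had means of 16.82 ± 0.27 in Ctrl, 16.00 ± 0.05 in S.A. and 16.96 ± 0.21 in L.A. (SD, n = 2). Its S.A. difference of -0.81 ± 0.19 was called (adjusted p = 0.0402), as was that of PGK1, the first ATP-making enzyme of the pathway, at -0.76 ± 0.15 (adjusted p = 0.0256). Neither was called with the block, and both calls ended when any 1 of the Ctrl or S.A. arrays was left out. The aldolase ALDOA and the enolase ENO1 differed by -0.64 and -0.57 in S.A. and were not called. A second probe set named ENO1, with no gene ID, differed by -1.49 in S.A. and 0.09 in L.A. Of the 34 genes, EGLN3 and P4HA2 also had other probe sets, given with those genes.

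GAPDH, the dehydrogenase of the triose steps and a common reference gene, was the 1 member near the upper limit of the table. On every array 32 probe sets shared a single top value, between 19.82 and 19.96, and no array had more than 22 probe sets above it. GAPDH lay 0.05 below this value and 0.02 above it on the Ctrl arrays. It read 19.88 and 19.92 in Ctrl, 19.56 and 19.43 in S.A. and 19.61 and 19.67 in L.A., with no overlap between groups. The differences from Ctrl, -0.41 ± 0.13 and -0.26 ± 0.13, were not called (adjusted p = 0.0975 and 0.343). How far a difference is compressed at that level was not tested. LDHA lay 0.67 and 0.71 below the shared value on the Ctrl arrays and 1.05 and 0.75 below it in L.A., so 3 of its values lay within 1 of it.

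The lactate dehydrogenase subunits were lowest in different groups. LDHA, the subunit that favours making lactate from pyruvate, read 19.26 and 19.20 in Ctrl, 17.45 and 17.24 in S.A. and 18.91 and 19.16 in L.A. The S.A. arrays lay far below the other 4. The S.A. difference was -1.89 ± 0.16 (adjusted p = 0.00294), and L.A. was above S.A. by 1.69 ± 0.16, a 3.22-fold higher level (adjusted p = 0.00232). Both were called with the block and with each array left out in turn, while L.A. minus Ctrl was -0.20 ± 0.16 (adjusted p = 0.543). LDHB, the subunit that favours lactate use, read 18.09 and 17.85 in Ctrl, 17.37 and 17.56 in S.A. and 16.93 and 16.95 in L.A., lowest in the long-term cells. It fell in L.A. by 1.03 ± 0.15 (adjusted p = 0.0285), a call lost with the block (adjusted p = 0.109) and without any 1 of the Ctrl or L.A. arrays. Its S.A. difference was -0.50 ± 0.15 and its difference between the acid groups -0.53 ± 0.15, neither called. PDK1, a kinase that inhibits pyruvate dehydrogenase, had means of 14.33 in Ctrl, 14.52 in S.A. and 13.50 in L.A. It was called only between the acid groups, at -1.02 ± 0.22 (adjusted p = 0.0288, and 0.059 with the block). That call ended without S.A. replicate 1 or L.A. replicate 1.

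**Figure D2:**
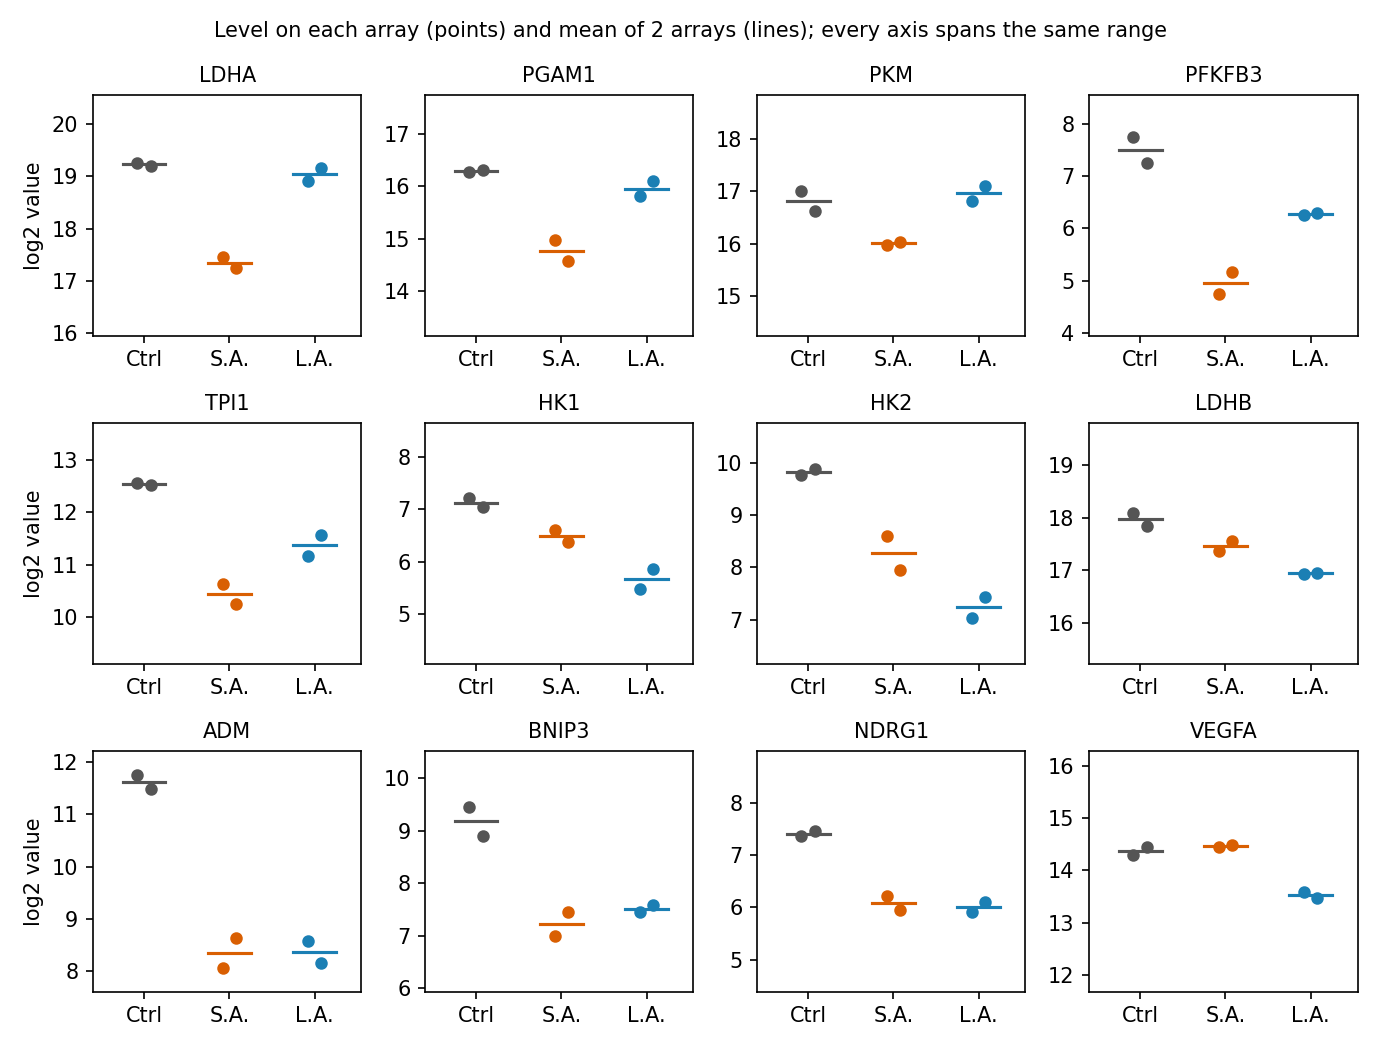
Log2 level on each of the 6 arrays (points) and the mean of 2 arrays (lines) for 12 genes, with axes of equal span. LDHA, PGAM1 and PKM were lowest in S.A., with L.A. closer to Ctrl, PFKFB3 and TPI1 were between in L.A., HK1, HK2 and LDHB were lowest in L.A., and ADM, BNIP3 and NDRG1 were low in both acid groups.

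Of the HIF target genes outside glycolysis, 3 fell in both acid groups and were not called between them. ADM, which encodes the vasodilator peptide adrenomedullin, had the largest difference of all 34 genes. It read 11.76 and 11.49 in Ctrl, 8.06 and 8.64 in S.A. and 8.58 and 8.17 in L.A. The acid groups overlapped each other and lay far from Ctrl. The differences were -3.27 ± 0.25 (adjusted p = 0.00243) and -3.24 ± 0.25 (adjusted p = 0.00551), or 9.68-fold and 9.48-fold lower levels, kept with the block and with each array left out in turn. Between the acid groups ADM differed by 0.03 ± 0.25 (adjusted p = 0.952).

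BNIP3, a receptor for the removal of mitochondria, read 9.46 and 8.90 in Ctrl, 6.99 and 7.46 in S.A. and 7.45 and 7.58 in L.A. It fell by 1.96 ± 0.25 in S.A. (adjusted p = 0.00741) and by 1.66 ± 0.25 in L.A. (adjusted p = 0.0276). NDRG1, a gene induced by hypoxia and metal depletion, read 7.36 and 7.45 in Ctrl, 6.22 and 5.95 in S.A. and 5.92 and 6.11 in L.A. Its differences were -1.32 ± 0.16 (adjusted p = 0.00691) and -1.39 ± 0.16 (adjusted p = 0.014). The block kept all 4 of these calls. In both genes the acid groups overlapped and were apart from Ctrl. Leaving out Ctrl replicate 1 or either L.A. array ended the L.A. call of BNIP3 (adjusted p up to 0.117), and leaving out either Ctrl array or L.A. replicate 1 ended that of NDRG1 (up to 0.0814).

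The other HIF targets had other orders. VEGFA, the angiogenic growth factor, was at 14.37 ± 0.11 in Ctrl, 14.47 ± 0.03 in S.A. and 13.53 ± 0.09 in L.A. (mean ± SD, n = 2). It fell in L.A. by 0.84 ± 0.14 (adjusted p = 0.0375), which was lost with the block (adjusted p = 0.176) and with any 1 of the 6 arrays left out. L.A. was below S.A. by -0.94 ± 0.14 (adjusted p = 0.00921, and 0.0441 with the block), a call that ended without L.A. replicate 2 (adjusted p = 0.0597). ANKRD37, an ankyrin repeat protein induced by HIF1A, had means of 10.09 in Ctrl, 10.68 in S.A. and 8.81 in L.A. It was not called against Ctrl in either group, at 0.58 ± 0.27 and -1.28 ± 0.27, but L.A. was below S.A. by -1.87 ± 0.27 (adjusted p = 0.00808), with the block and with each array left out.

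The collagen prolyl hydroxylase subunits, which modify procollagen in the endoplasmic reticulum, differed in opposite directions without passing the test. P4HA1 differed by -1.68 ± 0.42 in S.A. (adjusted p = 0.05001) and -1.66 ± 0.42 in L.A. (adjusted p = 0.104). Its Ctrl arrays lay 11.68 and 10.54, the widest replicate gap of the list. P4HA2 was the 1 member with both acid means at least 1 above Ctrl, by 1.03 ± 0.33 and 1.13 ± 0.33 (adjusted p = 0.0933 and 0.136). A second P4HA2 probe set, between 3.17 and 3.85 on all arrays, differed by -0.20 and -0.23. BNIP3L, the relative of BNIP3, differed by -0.73 in S.A. (adjusted p = 0.0536) and -0.29 in L.A., and the histone demethylase KDM3A by -0.25 and -0.47, none of them called.

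**Figure D3:**
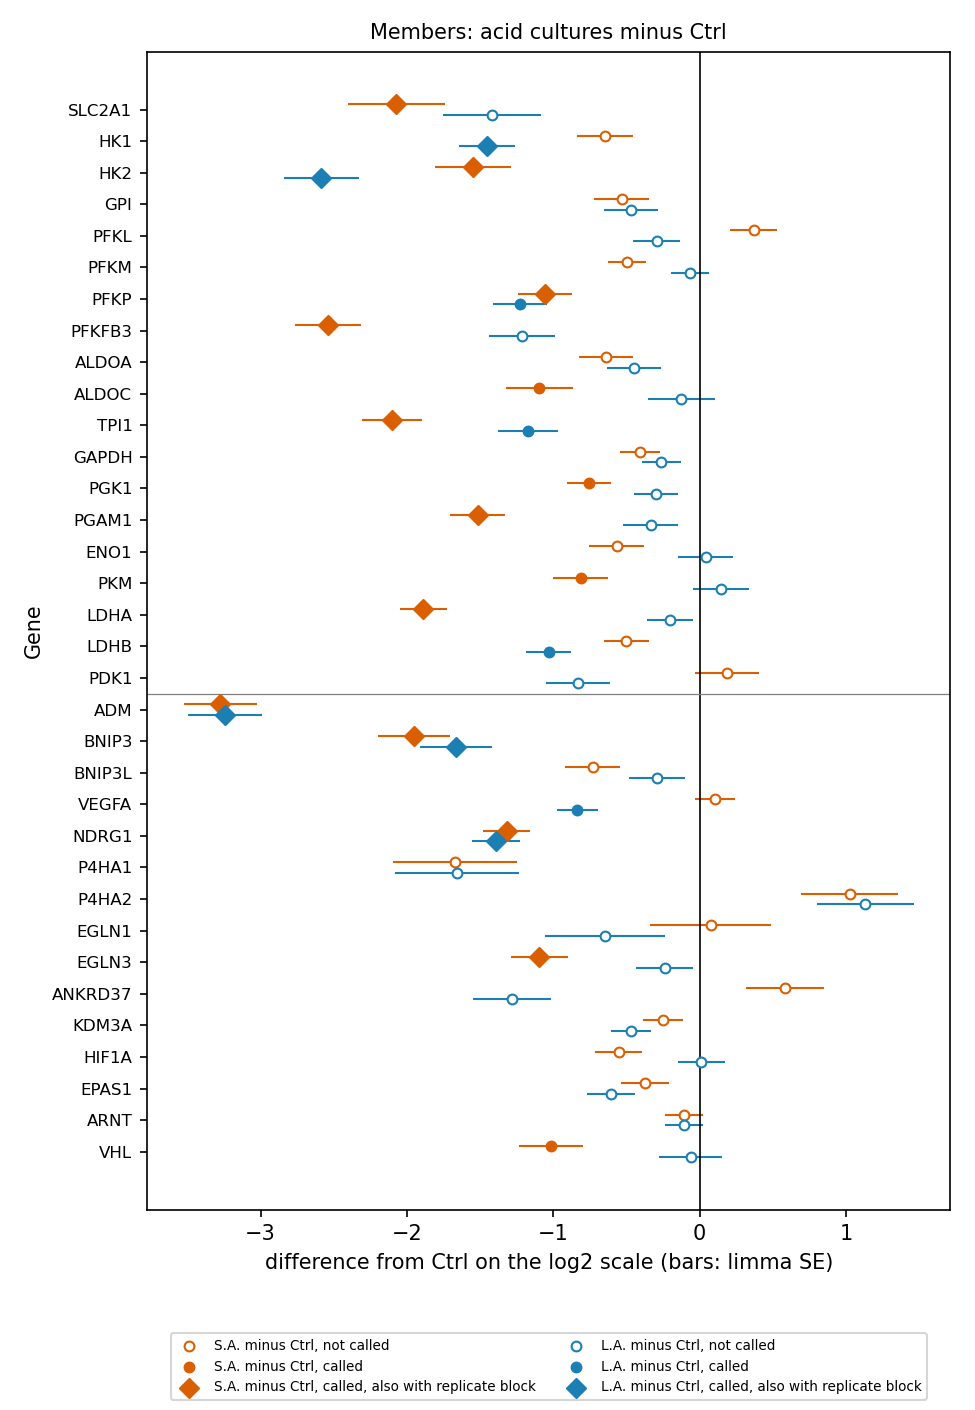
Difference of S.A. (orange) and L.A. (blue) from Ctrl on the log2 scale for the 34 genes, with limma standard errors as bars. Filled symbols were called, diamonds also with the replicate block, and open circles were not called; ADM, at -3.27 and -3.24, lies farthest from 0 in both groups.

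Of the oxygen-sensing machinery, HIF1A read 15.56 and 15.34 in Ctrl, 14.78 and 15.01 in S.A. and 15.53 and 15.39 in L.A. It was lower on both S.A. arrays, by -0.55 ± 0.16, but was not called (adjusted p = 0.0716), and L.A. differed from Ctrl by 0.01 ± 0.16. EPAS1, which encodes HIF-2 alpha, read 6.14 and 5.92 in Ctrl, 5.52 and 5.80 in S.A. and 5.45 and 5.40 in L.A., with differences of -0.37 and -0.60 that were not called (adjusted p = 0.188 and 0.118). ARNT, their shared partner, had the smallest spread of levels of the 4 regulators. It read 16.09 on both Ctrl arrays, 15.93 and 16.04 in S.A. and 15.96 and 16.01 in L.A., and was not called.

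VHL, the substrate receptor of the ligase that marks HIF alpha for degradation, read 9.83 and 9.93 in Ctrl, 8.67 and 9.06 in S.A. and 10.05 and 9.59 in L.A. It was low on the S.A. arrays only. The S.A. difference of -1.02 ± 0.22 (adjusted p = 0.0311) and that between the acid groups, 0.95 ± 0.22 (adjusted p = 0.0349), were called, and neither with the block (0.0701 and 0.0744). Leaving out either Ctrl array or S.A. replicate 1 ended the first, and leaving out replicate 1 of either acid group ended the second. Of the EGLN oxygen sensors, EGLN1 differed by 0.07 ± 0.41 and -0.65 ± 0.41, within the spread of its replicates, which read 10.20 and 9.12 in Ctrl. EGLN3 was the dimmest member and passed the filter by a small margin, with a mean of 3.79 over the arrays against a limit of 3.77. It read 4.19 and 4.27 in Ctrl, 3.32 and 2.95 in S.A. and 3.82 and 4.16 in L.A., and its S.A. mean of 3.13 was under that limit. It was called lower in S.A., also with the block, but the size of the difference is not measured at that level. Without EGLN3, 14 genes fell in S.A., 10 with the block, and 7 were higher in L.A. than in S.A. The other EGLN3 probe sets, with every group mean under the limit, differed by -0.28 and -0.16 in S.A. Leaving out S.A. replicate 2 or either Ctrl array ended that call.

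The comparison of L.A. with S.A. asks which differences were smaller or larger in the long-term cells. Here 8 of the 34 genes were higher in L.A. and 6 lower, against 8.7% and 7.24% of all genes, with a median of 0.126 beside 0.015 over all genes. The higher ones were PFKFB3, ALDOC, TPI1, PGAM1, PKM, LDHA, EGLN3 and VHL. All 8 were also called lower in S.A. against Ctrl, and the 2 comparisons share the S.A. arrays. The lower ones were HK1, HK2, PFKL, PDK1, VEGFA and ANKRD37. With the block 3 were higher (PFKFB3, PGAM1 and LDHA, against 4.85% of all genes) and 2 lower (VEGFA and ANKRD37, against 3.8%). PFKFB3, PGAM1 and LDHA lie on chromosomes 10 and 11. Protein-coding genes there had medians of -0.30 and -0.28 in S.A. minus Ctrl, and of -0.07 and -0.06 in L.A. minus Ctrl. Of the 26 members on chromosomes without a shifted median, 5 were higher, 0 with the block. The part of this shift in those calls was not tested. Of the 14 calls, those of LDHA and ANKRD37 held with each array left out in turn. Without L.A. replicate 2 the counts were 2 higher and 2 lower, without L.A. replicate 1 they were 4 and 2, without S.A. replicate 1 they were 5 and 2, and without S.A. replicate 2 they were 4 and 4.

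Single arrays also set the size of the other counts, and the share of all genes called with an array left out was not counted. Without Ctrl replicate 1, 9 of the 34 genes fell in S.A. and 1, P4HA2, rose, and 2 fell in L.A. The L.A. count was 4 without Ctrl replicate 2 or L.A. replicate 2 and 2 without L.A. replicate 1. The calls that held with each array left out were 8 in S.A., namely SLC2A1, PFKFB3, TPI1, PGAM1, LDHA, ADM, BNIP3 and NDRG1, and 2 in L.A., HK2 and ADM.

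Other measures moved with the S.A. differences. All 10 proliferation markers fell in S.A., 6 with the block, where 8.55% and 3.49% of all genes were called lower. Their median was -1.23, beside -0.04 over all genes. MKI67, a marker of cycling cells, was at 13.42 ± 0.23 in Ctrl, 10.27 ± 0.12 in S.A. and 13.34 ± 0.27 in L.A. (mean ± SD, n = 2). None of the 10 was called in L.A. against Ctrl, and their median there was 0.07. The part of proliferation in the differences of the 34 genes was not tested, and time in culture cannot be told apart from pHe in S.A. against Ctrl. Protein-coding genes of chromosomes 9, 10, 11 and 22 were lower in S.A. as a group, with medians of -0.30 over 462 genes on chromosome 10 and -0.28 over 743 genes on chromosome 11. Of the 34 genes 8 lie on these, HK1, PFKP, PFKFB3, PGAM1, BNIP3 and P4HA1 on chromosome 10 and LDHA and ADM on chromosome 11. Of these 8, 6 fell in S.A., and the block kept all 6 calls. The 8 had a median difference of -1.78. Of the other 26, 9 fell and the block kept 5 of those calls. The 26 had a median difference of -0.54. Among all genes 8.55% were called lower, and 3.49% in the block fit. Less the median of their chromosome, PFKFB3 was at -2.24, LDHA at -1.61, ADM at -2.99 and PFKP at -0.76 in S.A.

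A wider set of genes places the 34 in their pathways. Of 47 further glucose transport, glycolysis and pyruvate genes 30 passed the filter; 3 fell and 2 rose in S.A., and 0 fell and 1 rose in L.A., with medians of -0.06 and -0.21. Of 50 further hypoxia genes 37 passed; 9 fell and 2 rose in S.A., 4 fell and 3 rose in L.A., with medians of -0.45 and -0.04. Of 8 pentose phosphate genes 7 passed; 3 fell in S.A. and 0 were called in L.A. Among all genes tested, 8.55% were called lower and 6.23% higher in S.A., and 1.59% and 1.61% in L.A., so the S.A. shares of the glucose list, 10.0% and 6.67%, lay near those of all genes. With the block, the S.A. counts were 1 and 1 for the glucose list, 7 and 2 for the hypoxia list and 1 fall for the pentose phosphate list, and in L.A. they were 0 and 1, 1 and 1, and 0.

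TXNIP, which limits glucose uptake and is induced by glucose metabolites, was the gene of the glucose list with the largest rise. It read 8.11 and 7.84 in Ctrl, 10.56 and 11.03 in S.A. and 10.30 and 10.02 in L.A., with both acid groups above Ctrl. It rose by 2.82 ± 0.22 in S.A. (adjusted p = 0.00243) and by 2.19 in L.A. (adjusted p = 0.00843), also with the block. The muscle-type enolase ENO3 read 9.54 and 10.09 in Ctrl, 8.86 and 7.79 in S.A. and 11.34 and 11.80 in L.A., and was called between the acid groups, where L.A. was higher by 3.24.

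Among the hypoxia genes, AK4, a mitochondrial adenylate kinase, was low in both acid groups like ADM, at 6.88 and 5.99 in Ctrl, 3.36 and 4.16 in S.A. and 3.86 and 3.92 in L.A. Its acid levels lay near the filter limit of 3.77. It was called lower in both, also with the block, but the size of a difference is not measured at that level. PLOD2, a collagen lysyl hydroxylase, fell by 2.93 in S.A. and by 1.24 in L.A., and the transferrin receptor TFRC, an iron-responsive HIF target, by 2.60 and by 1.31; the block kept the S.A. calls only. DDIT4, a stress-induced inhibitor of mTORC1, fell by 1.73 in S.A., where it was at 13.98 against 15.71 in Ctrl, and the ubiquitin protease USP28 by 1.18; neither was called in L.A.

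Others of the hypoxia list had unlike differences from Ctrl in the acid groups. IGFBP3, a binding protein of insulin-like growth factors, read 6.42 and 6.22 in Ctrl, 3.81 and 3.64 in S.A. and 8.27 and 8.70 in L.A., so its S.A. mean of 3.73 was under the filter limit and L.A. was above Ctrl. It rose by 2.17 in L.A. (adjusted p = 0.00684) and was called lower in S.A., by an amount not measured at that level, both also with the block. STC2, a secreted glycoprotein, rose in S.A. by 2.00, and its L.A. difference was -1.49 (adjusted p = 0.0314, and 0.0529 with the block). Of glycogen metabolism, the synthase GYS1 rose by 1.52 in S.A. and the branching enzyme GBE1 fell by 1.61, while neither was called in L.A. CITED2, which competes with HIF for a coactivator, rose by 1.16 in L.A. and was not called in S.A.; the block did not keep that rise. HMOX1, the inducible heme oxygenase, was called between the acid groups only, with L.A. higher by 1.69. In the pentose phosphate list TKT fell by 1.33, TALDO1 by 0.91 and PGD by 0.83 in S.A., of which the block kept TKT (adjusted p = 0.0613 and 0.0728 for the other two). All 3 were higher in L.A. than in S.A., also with the block.

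**Figure D4:**
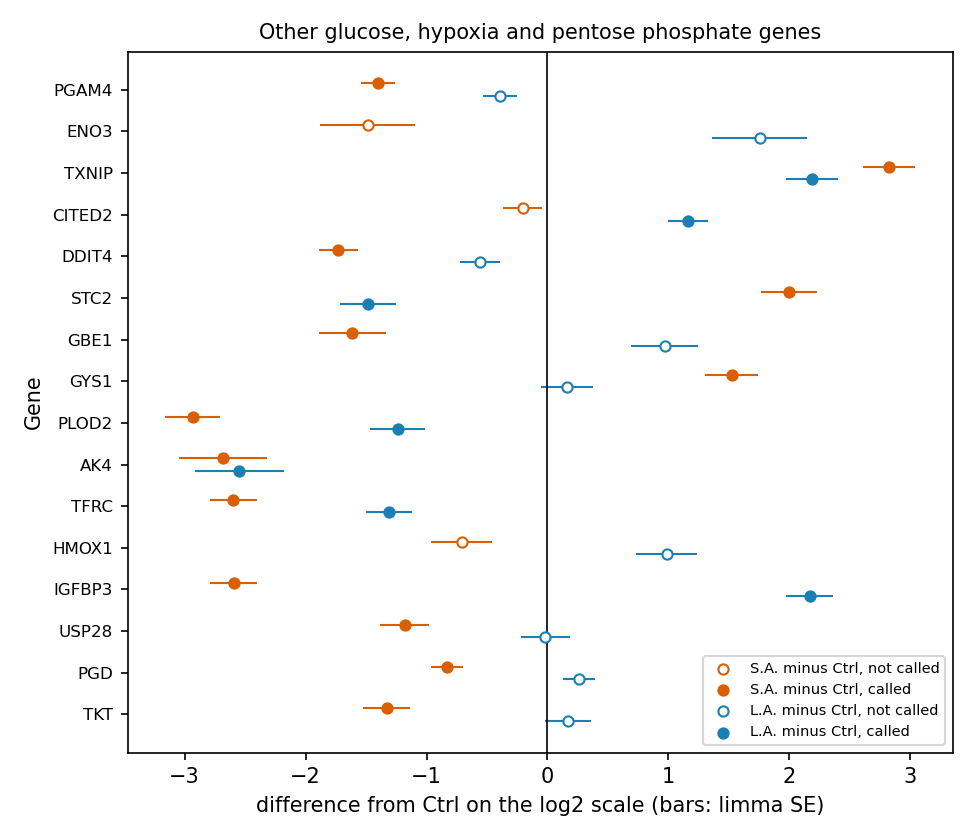
Difference of S.A. (orange) and L.A. (blue) from Ctrl on the log2 scale for the 16 genes of the wider lists called in any of the 3 comparisons with a difference of at least 1 there; bars are limma standard errors and filled points were called. TXNIP lay above 0 and AK4, PLOD2 and TFRC below 0 in both groups, while STC2 and IGFBP3 lay on opposite sides; the S.A. means of PGAM4, AK4 and IGFBP3 were under the filter limit.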

How the data were processed

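Total RNA of LP-1 cells was hybridised to 1-colour whole-transcript arrays, 2 arrays in each of 3 groups. The deposited table holds 1 normalized value per probe set, made by the authors with RMA in Transcriptome Analysis Console per the submitters' processing notes; the sources used here give no versions and no annotation release. The deposited values, between 1.93 and 20.02, were taken as log2, the scale of RMA, since no base is stated. RMA normalizes between arrays, so changes shared by most genes are removed.

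Of 135574 probe sets 36176 carried 1 gene symbol, 1119 several and 98279 none in GEO's platform annotation; symbols were updated through gene IDs, 25516 of 25555 of which matched the GRCh38.p14 gene table. The brightest single-symbol probe set stood for each of 33616 symbols, and the 21070 with a mean of at least the median of all probe sets (3.77) were tested. limma 3.58.1 in R 4.3.3 fitted group means on all 6 arrays with Benjamini-Hochberg adjustment over those genes, at a threshold of 0.05, and errors are limma standard errors unless given as SD. The code was tested on simulated data. With 2 arrays against 2, an exact permutation test cannot go below p = 0.333, so none was used.

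The members and all gene lists were chosen with earlier results of these data known, so none of them is an independent test. Values on every array are given for members called against Ctrl with a difference of at least 1, for GAPDH near the upper limit and for the regulators; the other members are given by means, differences or counts, and genes of the wider lists are named when called in any comparison with a difference of at least 1 there. The second probe sets of ENO1 and PGAM1, and TALDO1, were named after their values were seen. Same-numbered arrays deviated in opposite directions (correlations of -0.57, -0.47 and -0.41), where independent arrays would lie near 0. The labels state no pairing, and these values cannot decide whether the replicate numbers pair the samples. Alternatives were no filter, the mean of all probe sets of a symbol, a mean-variance trend and centring each array on its median. Others were only protein-coding genes outside the chromosomes with shifted medians, a replicate block, and leaving out each array. The number of arrays limits the precision.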

Additional observations from a re-analysis of the deposited data

Results flagged for a closer look

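Between the acid groups, which share the contrast with Ctrl, 14 of the 34 genes had effects that differed by limma's test of L.A. minus S.A., 8 higher and 6 lower, where 8.7% and 7.24% of all genes were called. The effect was more positive in L.A. for LDHA (1.69), PFKFB3 (1.32), PGAM1 (1.18), ALDOC (0.97), PKM (0.96), VHL (0.95), TPI1 (0.93) and EGLN3 (0.86), on the log2 scale. It was more negative for ANKRD37 (-1.87), HK2 (-1.04), PDK1 (-1.02), VEGFA (-0.94), HK1 (-0.81) and PFKL (-0.66). With the replicate block the calls of LDHA, PFKFB3, PGAM1, ANKRD37 and VEGFA were kept, and those of LDHA and ANKRD37 held with each array left out in turn. EGLN3 lay under the filter limit in S.A.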

How the results depend on the processing

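With the replicate block, the counts of genes that fell were 11 in S.A. and 5 in L.A., and between the acid groups 2 were lower and 3 higher in L.A. The labels state no paired design for that block, and whether the replicate numbers pair the samples is not known. Crossing the numbers was not tried because there are 3 groups. Without the filter 3 genes were lower in L.A. than in S.A., against 6. With a mean-variance trend 21 fell in S.A. and 10 in L.A. The share of all genes called was counted only for the main fit and the block, so counts under the other settings have none beside them. Leaving out 1 array at a time, where the lone array is assumed to vary like the other groups, gave 9 to 16 genes lower and 0 to 1 higher in S.A., 2 to 10 lower in L.A., and 2 to 5 lower and 2 to 8 higher in L.A. than in S.A. Across the same left-out arrays 13 differences changed sign, none of them called. Of these, PDK1 in S.A. ranged from -0.051 to 0.427, in L.A. ALDOC ranged from -0.37 to 0.12, PKM from -0.047 to 0.336, HIF1A from -0.10 to 0.12 and VHL from -0.29 to 0.17, and between the acid groups ADM ranged from -0.26 to 0.32 and NDRG1 from -0.213 to 0.066. The others were EGLN1 in S.A., ENO1 in L.A., and GPI, P4HA1, P4HA2 and ARNT between the acid groups. Centring each array gave 14 lower in S.A. and 9 in L.A. Averaging probe sets left 33 genes tested, without EGLN3, and gave 15 lower in S.A., of which 14 were called before and ENO1 was added, and 9 in L.A. A fit of protein-coding genes only, without chromosomes 9, 10, 11 and 22, left 26 of the genes, of which 13 fell in S.A. and 7 in L.A. In the main fit 9 and 5 of the same 26 were called lower. The parts of the 2 exclusions in this were not separated. The cause of these changes was not tested, apart from the fewer arrays or genes each setting leaves. Low signal limits EGLN3, PGAM4, AK4 and IGFBP3 in S.A., and the upper limit GAPDH and, in Ctrl and on L.A. replicate 2, LDHA.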
